A study of Oryza sativa with 4 samples.

Results

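Mitotic cyclin and cyclin-dependent kinase genes were followed in protoplasts (cells whose walls had been digested away) from the root tips of 2 rice cultivars, 93-11 (Indica) and Nipponbare (Japonica). The members are 10 genes named by identifier: 3 A-type cyclins, 4 B-type cyclins, the A-type kinase CDKA-1 and the B-type kinases CDKB1-1 and CDKB2-1. All 10 were found, of 20567 genes listed in either of the deposited tables. Both tables list 9 of them, as they do 8576 genes in all. CDKA-1, also written CDKA1, stands in the Nipponbare table only. The genes were selected on their RPM values in these 4 libraries, so the contrast between the cultivars is described for them and not tested.

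Each cultivar has 2 libraries. All come from seedlings of 3 days, with tips of 5 mm cut from 800 pooled crown roots, digested with the same wall-degrading enzymes and read as poly(A) RNA. Nothing in the labels says that the libraries of a cultivar are separate protoplast preparations, so cultivar and preparation cannot be told apart. The p-values given for other genes therefore rest on a spread between libraries that may be technical.

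Cyclins are regulatory proteins that bind and switch on cyclin-dependent kinases, and their rise and destruction drive the cell from one phase of division to the next. In plants A-type cyclins act from DNA synthesis to the entry into mitosis and B-type cyclins act at mitosis itself. The A-type kinase, which carries the PSTAIRE motif shared with animal and yeast CDKs, is made through the whole cycle, whereas B-type kinases are particular to plants and accumulate from G2 to mitosis. In a root, such genes are known as marks of the dividing cells of the meristem, which lies behind the cap at the very tip.

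The levels are RPM, the read number scaled to a common library total. The values of 1 RPM and above had been deposited without their decimal points, which were restored from the rule that every value is a whole number of reads. The library totals that follow lay between 21504426 and 21504715 reads, so 1 read was worth 0.0465 RPM. Why the totals are so alike was not tested, and the counting intervals rest on them. The listed genes held 42.3% and 43.5% of the total in the 93-11 libraries and 55.6% and 55.7% in the Nipponbare libraries. The part of this difference in the RPM values was not tested. Where a library had 0 reads, its level could be as high as 0.140 RPM, or 3 reads. Intervals and floors given here cover counting error only. The digits cannot show a pair of read numbers that both end in 0, and such a pair would be restored 10 times too low. RPM is not scaled by transcript length, so levels are compared between cultivars and not between genes.

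The labelled tissue was checked with root markers. Of 7 genes of the root meristem, 6 stand in both tables, and for each of the 6 both 93-11 libraries lay above both Nipponbare libraries. The same held for 59.6% of the genes tested over the whole table, which had a mean of at least 1 RPM. Only 1 of the 6, LOC_Os04g55970, passed that filter, so the share does not describe genes as low as the others. Their summed level was 122 and 125 RPM in 93-11 against 0.233 and 0.186 RPM in Nipponbare, nearly all of it from LOC_Os04g55970. The quiescent centre gene QHB, at 0.233 and 0.791 RPM in 93-11, and SHR1 and SCR2, which pattern the stele and the endodermis, were among the 5 with 0 reads in Nipponbare. In 93-11 these 5 were low too, at no more than 1.95 RPM. The meristem markers were at or near 0 in the Nipponbare libraries, which are labelled as root tip like those of 93-11, but only LOC_Os04g55970 was above 1.95 RPM in 93-11. Low levels in Nipponbare were not particular to the meristem. The markers of differentiated root that both tables list summed to 5.53 and 5.67 RPM there against 93.5 and 96.4 RPM in 93-11.

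The 9 members that both tables list were at 4.65 to 79.9 RPM in the 93-11 libraries and at no more than 1.02 RPM in the Nipponbare libraries. In 93-11 their summed level was 269.9 RPM in replicate 1 and 276 RPM in replicate 2. In Nipponbare the sum was 1.12 and 1.44 RPM. That is 11743 reads against 55 reads, a ratio of 214. For each of the 9 genes both 93-11 libraries lay above both Nipponbare libraries, as they did for 59.6% of the 7269 genes that passed the filter of a mean of 1 RPM, while the reverse held for 38.9%. Because the genes were chosen with this contrast known, nothing is read from that count. In bulk RNA, fewer dividing cells and less of these RNAs per cell cannot be told apart. The part of the preparation and of the read alignment in this contrast was not tested.

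**Figure D1:**
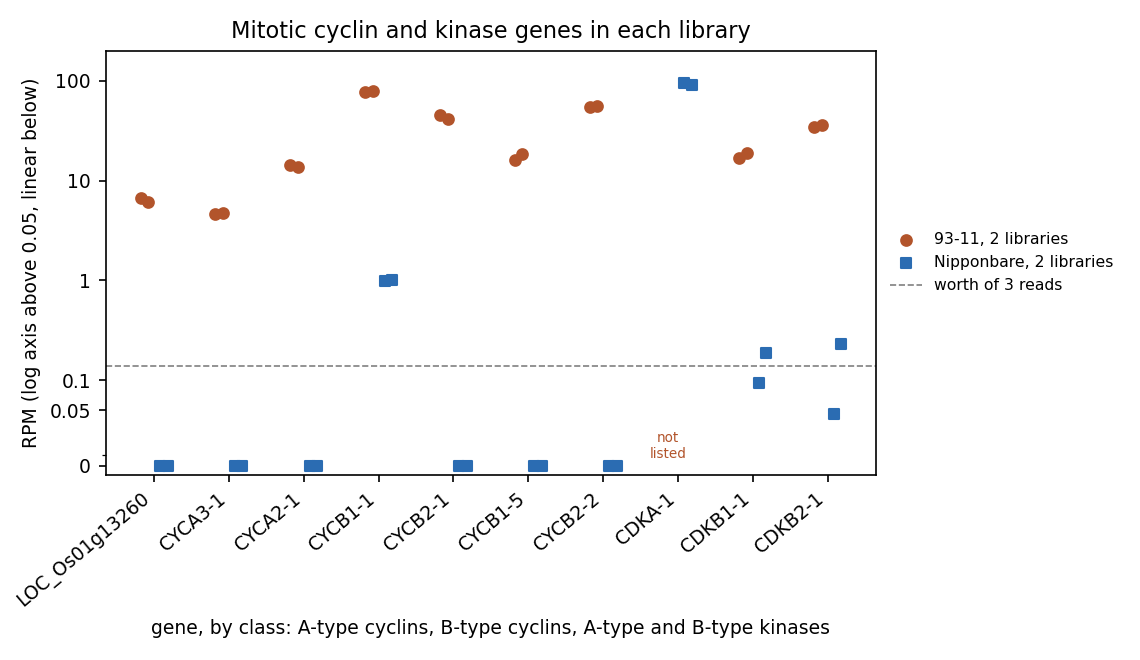
Level of each gene in each library, in RPM on an axis that is logarithmic above 0.05 and linear below; circles are the 93-11 libraries, squares the Nipponbare libraries, and the dashed line marks the worth of 3 reads, 0.140 RPM. The circles stand between 4.65 and 79.9 RPM and 6 of the genes have their Nipponbare squares at 0, while CDKA-1 has squares only, at 94.7 and 90.3 RPM.

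The A-type cyclin genes had no read in either Nipponbare library. CYCA2-1 (LOC_Os12g31810), on chromosome 12, belongs to the class of A2 cyclins, which are known from Arabidopsis to hold cells in the mitotic cycle. It was at 14.3 RPM in 93-11 replicate 1 and 13.7 RPM in replicate 2, a mean of 14.0 ± 0.460 RPM (SD, n = 2). Against the floor for 0 reads it was at least 100.3-fold higher in 93-11. LOC_Os01g13260, an A-type cyclin gene on chromosome 1 with no matching name in the RefSeq table, was at 6.65 and 6.09 RPM in 93-11, at least 45.7-fold above the floor. CYCA3-1 (LOC_Os03g41100), on chromosome 3, was at 4.65 and 4.79 RPM, at least 33.8-fold above it. It had the fewest 93-11 reads of the members, 100 and 103. The summed A-type cyclin level was 25.6 and 24.6 RPM in 93-11, and the 3 genes together drew 1079 reads there and 0 in Nipponbare.

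Of the 4 B-type cyclin genes 1 had reads in Nipponbare. CYCB1-1 (LOC_Os01g59120), on chromosome 1, encodes a cyclin of the B1 class, whose promoter and destruction box are widely used in plants to mark cells at G2 and mitosis. It was at 76.7 and 79.9 RPM in 93-11 and at 0.977 and 1.02 RPM in Nipponbare. Its Nipponbare levels rest on 21 and 22 reads. The ratio of the means was 78.3, with an exact 95% counting interval of 58.0 to 108.

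The second B1-class gene, CYCB1-5 (LOC_Os05g41390) on chromosome 5, was at 16.0 and 18.4 RPM in 93-11 and had no Nipponbare read, which makes it at least 123-fold higher in 93-11. Its 93-11 libraries differed by 14.1% of their mean, more than those of any other member there. That difference was 1.91 times the counting SD. The B2-class genes CYCB2-1 (LOC_Os04g47580, chromosome 4) and CYCB2-2 (LOC_Os06g51110, chromosome 6) encode mitotic cyclins, and CYCB2-2 is known in rice to partner CDKB2-1. CYCB2-1 was at 45.1 and 41.9 RPM in 93-11 and CYCB2-2 at 54.8 and 56.2 RPM. Both had 0 reads in Nipponbare, which makes them at least 312-fold and at least 398-fold higher in 93-11. The 4 B-type cyclin genes summed to 193 and 196 RPM in 93-11 against 0.977 and 1.02 RPM in Nipponbare.

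The B-type kinases kept a few reads in Nipponbare. CDKB1-1 (LOC_Os01g67160), on chromosome 1, was at 16.9 and 18.9 RPM in 93-11 and at 0.0930 and 0.186 RPM in Nipponbare, where it had 2 and 4 reads. CDKB2-1 (LOC_Os08g40170), on chromosome 8, was at 34.7 and 36.4 RPM in 93-11 and at 0.0465 and 0.233 RPM in Nipponbare, from 1 and 5 reads. For each of the 2 genes both 93-11 libraries lay above both Nipponbare libraries, as they did for 59.6% of the genes tested. The reverse held for 38.9%, so nothing is read from it.

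The kinase ratios rest on few Nipponbare reads. CDKB1-1 was 129-fold higher in 93-11, with a counting interval of 58.8 to 351. CDKB2-1 was 255-fold higher, with an interval of 117 to 695, and its ratio moved to 153 when Nipponbare replicate 1 was left out and to 764, outside the counting interval, when Nipponbare replicate 2 was. The ratio of CDKB1-1 lay between 96.4 and 193 when a library was left out.

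CDKA-1 (LOC_Os03g02680), the A-type kinase gene on chromosome 3, was at 94.7 and 90.3 RPM in the Nipponbare libraries, a mean of 92.5 ± 3.09 RPM (SD, n = 2) from 3978 reads. The 93-11 table does not list it, so its level there was not analysed here and no comparison can be made. It is the only member with more than 43 reads over the Nipponbare libraries.

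In 93-11 the 2 libraries differed by 2.43% (CYCB2-2) to 14.1% (CYCB1-5) of the gene's mean, and by 0.211 to 1.91 times the counting SD. In Nipponbare the libraries of CDKA-1 and CYCB1-1 differed by 4.73% and 4.65%, and those of CDKB1-1 and CDKB2-1, with 6 reads each in all, by 66.7% and 133%. The restoration picks the closest pair among candidates 10-fold apart, so it sets the likeness of a pair in part. Restored singly, each at its lowest whole number of reads, the libraries gave identical read numbers for 8 of the 10 genes. The exceptions in 93-11 replicate 1 were CYCB1-1, with 165 reads instead of 1650, and CYCB2-1, with 97 instead of 970.

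On the log2(RPM + 1) scale the members' differences, 93-11 minus Nipponbare, ran from 2.52 (CYCA3-1) to 5.82 (CYCB2-2), with a median of 4.18. The median over all 7269 genes tested was 1.44, with quartiles at -1.45 and 2.66. Of all genes tested, 5.75% had a difference above the members' median and 0.688%, or 50 genes, had one above CYCB2-2. For the 6 members at 0 reads in Nipponbare this difference is set by their 93-11 level alone. The A-type cyclins had differences of 2.52, 2.88 and 3.91, the B-type cyclins of 4.18 to 5.82 and the B-type kinases of 4.05 and 5.01. Since RPM is not scaled by transcript length, the classes cannot be ranked by these values.

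**Figure D2:**
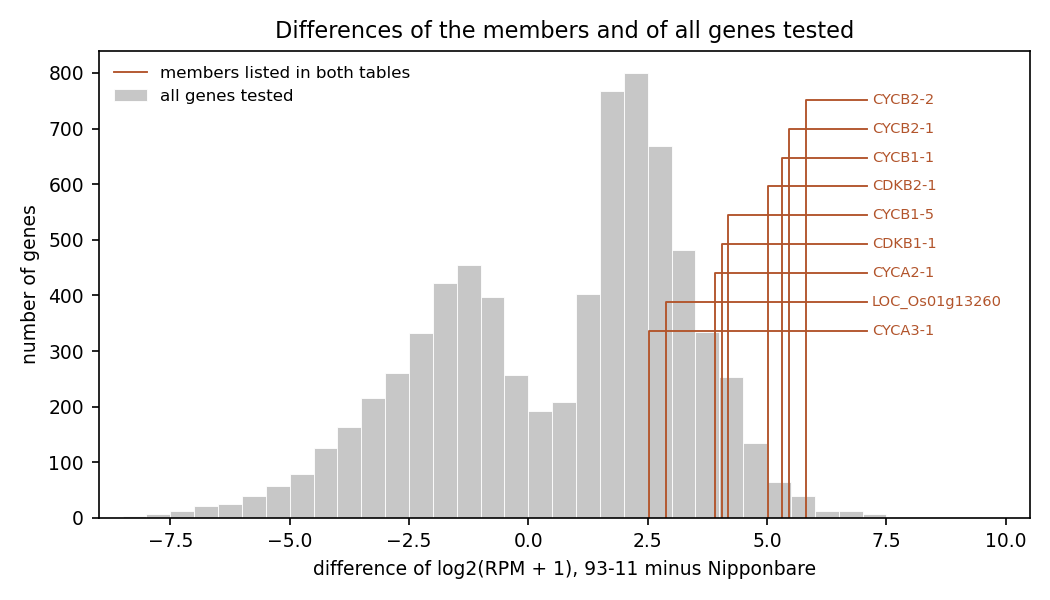
Histogram of the differences of log2(RPM + 1), 93-11 minus Nipponbare, over the 7269 genes tested (grey, number of genes per bin), with a line at each of the 9 members listed in both tables. The members lie between 2.52 and 5.82, to the right of the median of all genes at 1.44.

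A level of 0 reads in both Nipponbare libraries was found for 6 of the 9 members and for 15.1% of the genes tested (1100 of 7269). Without the filter it was found for 2020 of the 8576 genes that both tables list. The reverse, 0 reads in both 93-11 libraries, was found for 0.660% of the genes tested (48 genes) and for no member. The members were chosen with this contrast known and passed the filter through their 93-11 level, so nothing is read from their counts. The tables differ in this respect as a whole, since 23.3% of the genes in the Nipponbare table and 3.92% of those in the 93-11 table had 0 reads in both libraries. The sources used here give neither the reference to which each cultivar's reads were aligned nor the treatment of reads shared between cyclin paralogs. The part of either in the members' values was not tested.

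The members lie on 7 chromosomes, so the tested genes beside them could be compared. For each member listed in both tables the nearest tested gene on either side by identifier was taken, a choice made after the members' values were seen. The identifier numbers of member and neighbour lay 10 to 320 apart, so the 2 need not be adjacent genes. Of these 18 neighbours 11 were higher in 93-11 by limma, where 59.0% of all genes tested were, 6 were higher in Nipponbare, where 37.9% were, and 1 was not called. Their median log2 difference was 1.58, close to the 1.44 of all genes. They ran from -3.64 to 5.94. Next to CYCB1-5 both neighbours were lower in 93-11, at -2.92 and -0.76, and next to CYCB2-2 they were at -2.24 and 0.45. In 2 places the neighbour's difference reached that of the member, for LOC_Os01g13260 (3.36) and for CYCB1-1 (5.94). The identifier numbers lay 170 and 230 apart there.

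**Figure D3:**
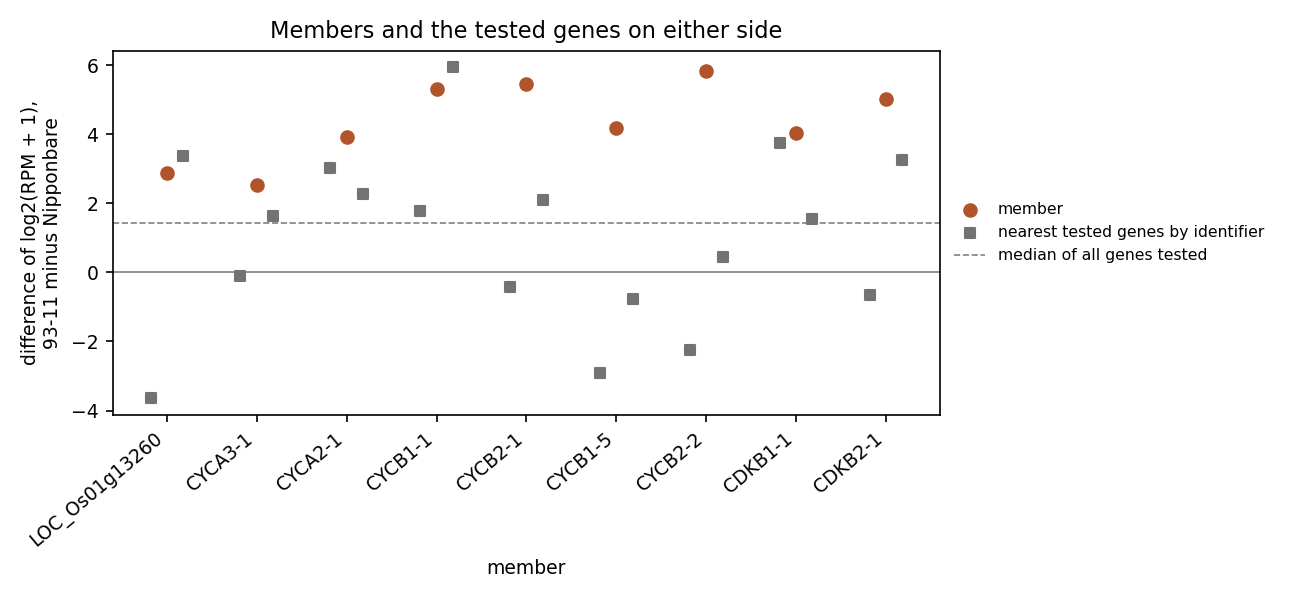
Differences of log2(RPM + 1), 93-11 minus Nipponbare, for each member (circles) and for the nearest tested genes on either side by identifier (squares), with the dashed line at the median of all genes tested, 1.44. The circles lie between 2.52 and 5.82, and the squares spread from -3.64 to 5.94 on both sides of 0.

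The rest of the cell cycle was followed in 55 further genes. Both tables list 24 of them and 20 passed the filter. By limma, with Benjamini-Hochberg adjustment over all 7269 genes, 18 had the higher level in 93-11 and 2 in Nipponbare, where 59.0% and 37.9% of all genes tested did. The lists were drawn up with earlier results of these libraries known, so these counts, and those of each list and of the markers, are descriptions and no independent evidence of a direction. The median difference of the 20 was 2.75 on the log2 scale. The 4 that did not pass the filter had 0 reads in both Nipponbare libraries and at most 2.14 RPM in 93-11. Another 4 genes stand in the 93-11 table only, 15 in the Nipponbare table only and 12 in neither.

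Genes of the entry into the cycle, from G1 to DNA synthesis, went both ways. Of 21 genes for D-type cyclins, E2F and DP factors and retinoblastoma-related proteins 5 were tested, 4 of them higher in 93-11 by limma and 1 higher in Nipponbare, against 59.0% and 37.9% of all genes tested. The latter, LOC_Os03g05760, has no name in the RefSeq table. It was at 73.8 and 73.6 RPM in Nipponbare and 7.77 and 6.88 RPM in 93-11, 10.1-fold higher in Nipponbare (limma log2 difference -3.17, SE 0.0722, adjusted p = 1.86e-06). With it the list's 8 genes in both tables summed to 51.2 and 51.4 RPM in 93-11 and to 77.9 and 77.3 RPM in Nipponbare. CYCD4-1 (LOC_Os09g29100), a D-type cyclin gene of the class that answers to growth signals, was at 19.1 and 20.5 RPM in 93-11 and 2.46 and 2.88 RPM in Nipponbare. It was 7.40-fold higher in 93-11 (limma log2 difference 2.50, SE 0.0935, adjusted p = 7.42e-06). The call was lost with each library restored singly (limma adjusted p = 0.433), which puts 1 library of a pair 10 times lower.

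The next list held 16 genes, for partners and regulators of the mitotic kinases and for other steps of division. By limma 8 of them were tested, 7 higher in 93-11 and 1 higher in Nipponbare, against 59.0% and 37.9% of all genes tested. Another 5 stand in the Nipponbare table only, 1 in the 93-11 table only and 2 in neither. NACK (LOC_Os01g33040), which encodes a kinesin known from tobacco to build the cell plate, was at 42.6 and 40.4 RPM in 93-11 and had no read in Nipponbare. It was at least 298-fold higher in 93-11 (limma log2 difference 5.41, SE 0.0772, adjusted p = 9.02e-07). NACK passed the filter through its 93-11 level alone, so nothing is read from this p-value.

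The gene higher in Nipponbare was MYB3R-2 (LOC_Os01g62410), which encodes a MYB factor with 3 repeats, known in rice for cold tolerance and for binding the promoters of G2 and mitosis genes. It was at 137 and 140.4 RPM in Nipponbare and 32.2 and 30.2 RPM in 93-11. That is 4.44-fold higher in Nipponbare (limma log2 difference -2.12, SE 0.0509, adjusted p = 2.08e-06). This call too was lost with each library restored singly (log2 difference -1.98, limma adjusted p = 0.387). The kinase gene WEE1, which restrains CDKs by phosphorylation, was listed for Nipponbare only, at 52.2 and 49.2 RPM. So was the CDK inhibitor gene KRP1, at 23.5 and 25.1 RPM.

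**Figure D4:**
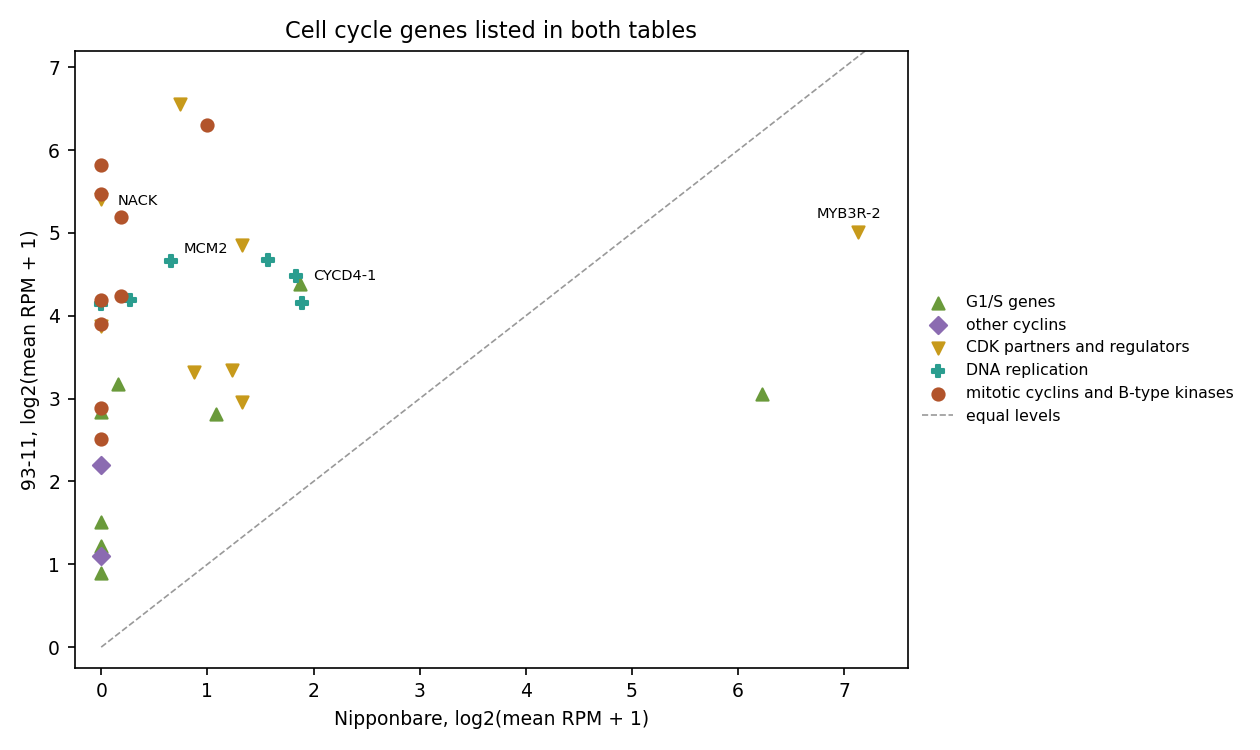
Mean level in 93-11 against mean level in Nipponbare, each as log2(mean RPM + 1), for the members and the 24 other cell cycle genes that both tables list, with a dashed line of equal levels. The 9 members stand at the left edge, at or below 1.00 RPM in Nipponbare, as do many of the other genes above the line. Below the line lie 2 genes, MYB3R-2 with 139 RPM in Nipponbare and 1 gene of the G1/S list.

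The 3 cell cycle genes most like the members, by Euclidean distance to the members' median log2(RPM + 1) over the 4 libraries, included MCM4 (distance 0.173) and MCM5 (distance 0.458), both subunits of the helicase that opens DNA at replication origins. MCM4 was at 15.0 and 18.3 RPM in 93-11 with 0 reads in Nipponbare, and MCM5 was at 17.7 and 16.9 RPM against 0.0930 and 0.326 RPM. The third gene, at a distance of 0.561, has no name in the RefSeq table. The markers were left out of this ranking, and the differentiated root gene CESA7 had a distance of 0.526. The members' median was 0.00 in both Nipponbare libraries. A small distance therefore means a low Nipponbare level and a like 93-11 level in RPM, and no link between the genes is read from it. All 6 replication genes tested were higher in 93-11 by limma, as were 59.0% of all genes tested. MCM2 was at 24.3 ± 0.690 RPM (SD, n = 2) against 0.581 ± 0.0329 RPM, MCM3 at 24.6 ± 0.164 against 1.98 ± 0.362 RPM, and MCM6 at 21.4 ± 0.296 against 2.56 ± 0.0658 RPM.

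Genes of differentiated root cells were found in either table. Of 9 such genes 5 stand in both tables, and all 5 were higher in 93-11 by limma, as were 59.0% of all genes tested. They summed to 93.5 and 96.4 RPM against 5.53 and 5.67 RPM, and 1 of them had 0 reads in Nipponbare. Most of the Nipponbare sum came from PHO1-2, a gene for phosphate loading of the xylem, at 4.70 and 4.60 RPM there and 8.09 and 7.39 RPM in 93-11. OsCASP1, a gene of the Casparian strip, stands in the 93-11 table only, at 34.4 and 34.3 RPM. The other 3, the cellulose synthase genes CESA4 and CESA9 and the silicon transporter gene Lsi1, stand in the Nipponbare table only, at 2.33 (CESA9) to 6.65 RPM (CESA4). Of 4 leaf genes 1 stands in both tables, the chlorophyll-binding protein gene CAB1R, at 5.21 and 5.53 RPM in 93-11 with 0 reads in Nipponbare. The part of these cell types and of the meristem in the members' values was not tested.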

How the data were processed

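Bulk RNA of 4 libraries was analysed. The authors deposited 1 table per cultivar of RPM values, per the file headers. HISAT2 2.0.4 and HTSeq 0.11.2 are the tools listed in the submitters' processing notes. Neither the genome build nor the annotation nor the criterion for listing a gene is stated there. Values of 1 RPM and above were written as digits with a dot after every 3. The smallest value gave each library's total, and each power of 10 was chosen so that the value is a whole number of reads (tolerance 1e-06 of a read plus 1e-12 of the value), taking the closest pair of the cultivar's libraries and, of equal pairs, the lowest. The partner library raised a value in 964 genes of 93-11 and 821 of Nipponbare. Genes whose pair differed by more than 0.4 in log10 were left out (3 and 1).

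Differences between cultivars were fitted on log2(RPM + 1) with limma 3.58.1 (R 4.3.3, prior variance following the mean level) for genes in both tables with a mean of at least 1 RPM, Benjamini-Hochberg adjusted and called at 0.05. This scale understates the change of low genes. Restoration and fit were tested on simulated data. The simulated reads were drawn around the restored read numbers, so errors already in these cannot be seen. In the simulated fit most genes were left unchanged, whereas most genes were called in these libraries. Folds against 0 reads use a floor of 3 reads per library. Counting intervals are exact (Clopper-Pearson, 95%, SciPy 1.17.1).

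Members and lists were chosen with earlier results of these data known. List genes were named where both tables list them and they reached 20 RPM in a library or were not higher in 93-11, where 1 table lists them at 20 RPM or more, or where they were among the 3 most like the members, and only if the RefSeq table of the assembly ASM3414082v1 holds the name on the chromosome of the identifier. LOC_Os03g05760, LOC_Os04g55970 and the markers below 20 RPM are named outside this rule, after their values were seen. The RefSeq table holds 9 of the 10 member names and 49 of the 75 names of the other list genes. The order of the 46 neighbouring pairs along the chromosomes had 0 exceptions. The identifiers of the list genes were written from knowledge of the rice literature, which the tables cannot check.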

Additional observations from a re-analysis of the deposited data

How the results depend on the processing

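All 9 members kept their direction in every alternative tried. This was no check, since 6 of them had 0 reads in both Nipponbare libraries and all were chosen with this contrast known. The members' median log2 difference of 4.18 was 7.14 with a pseudocount of 0.1 RPM, 5.14 with 0.5 RPM and 3.94 with each library restored singly. It was 3.42 under quantile normalization and 3.93 under median-ratio scaling. It lay between 4.08 and 4.28 when a library was left out. With no filter it was 4.18, since a filter does not change a gene's difference and all 9 members had passed it. The median of all genes moved from 1.44 to 1.03 under median-ratio scaling and to 0.59 under quantile normalization. The members' median lay 2.73 above that of all genes without further scaling and 2.90 and 2.84 above it under these scalings. With pseudocounts of 0.1 and 0.5 RPM the gap was 5.36 and 3.52, so it depends on the pseudocount. Among the other cell cycle genes 18 were higher in 93-11 and 2 in Nipponbare under both scalings, both pseudocounts and each left-out library. With no filter the counts were 22 and 2, and with each library restored singly 15 and 1. By limma 7047 genes were called, and 5959 to 8233 under the alternatives.

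The replicate numbers are shared between the cultivars, but nothing in the labels ties same-numbered libraries together, and their deviations from the cultivar means had a correlation across 7269 genes of 0.0194. With the replicate number as a block 7070 genes were called and the other cell cycle genes again split into 18 and 2. The members' median stayed at 4.18, since in this balanced layout a block cannot change a gene's difference. A level of 0 reads bounds the 6 members without Nipponbare reads at 0.140 RPM, and a factor of 10 in a restored pair cannot be settled from these tables.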
